A study of Mus musculus with 2 samples.

Results

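The genes described here are the nuclear genes of the mitochondrial respiratory chain and the ATP synthase, measured one cell at a time in CD11b-enriched cells of the mouse cochlea. They are all rows of the gene table whose symbol starts with Ndufa, Ndufb, Ndufc, Ndufs, Ndufv, Uqcr, Cox4i, Cox5, Cox6, Cox7, Cox8 or Atp5 and holds neither -ps nor Rik. The rule found 88 of 48709 genes. Of these, 36 encode subunits of complex I, 8 of complex III, 18 of complex IV, counting Ndufa4, and 15 of complex V. The other 11 match the symbol rule without being subunits of these complexes: the complex I assembly genes Ndufaf1 to Ndufaf7, Ndufa4l2, Cox7a2l, Atp5s and Atp5sl. The rule itself uses gene symbols and no measured value.

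The series holds 1 droplet library of cells from electrode-implanted cochleae and 1 of cells from non-implanted cochleae. Both came from mice labelled C57BL/6J/B6 of genotype CX3CR1+/GFP Thy1+/YFP, which carry fluorescent reporters at Cx3cr1 and under the Thy1 promoter, so the controls carry the same alleles, and each library pooled males and females. The tissue was taken 33 days after implantation, cells were enriched with CD11b magnetic beads, and the design text names the contralateral cochlea as the comparison tissue. The labels give neither the ages nor the number of animals in a library, nor whether the electrode released a drug. The gene table lists Itgam, which encodes CD11b itself, at 0 UMIs (unique transcript molecules) in both libraries, so the enrichment could not be checked on that gene.

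The respiratory chain passes electrons from NADH and succinate to oxygen through complexes I to IV in the inner mitochondrial membrane, and complex V uses the proton gradient so built to make ATP. Most subunits are encoded in the nucleus, while a small set, read from the mt- genes, is encoded in mitochondrial DNA, and working complexes I, III, IV and V need both. Neutrophils are known to rely mainly on glycolysis and to carry few mitochondria once mature, whereas osteoclasts, the bone-resorbing cells, are packed with mitochondria.

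Barcodes were kept at 200 genes or more and at most 10% of UMIs from mt- genes. That left 3149 implanted and 3513 non-implanted cells, with 19426864 and 21485090 UMIs in total and medians of 4371 and 4238 UMIs per cell. The libraries shared 6 barcodes. Cells were grouped by clustering without the 88 genes, the mt- genes or the other mitochondrial lists compared below. Mitochondrial genes outside those lists, and near-identical copies of members under other symbols, were not left out. Classes were named by marker genes, none of which is a member, so the classes do not rest on the rows of the 88 genes themselves. There is 1 library per group, so no difference below has a replicate check and none was tested. Levels are given as CPM, counts per 1000000 UMIs of the same cells, and the 95% intervals in parentheses are exact Poisson limits for a level and exact conditional limits for a ratio. They cover counting error only.

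The start regions of 6 members are shown because these genes mark the ends and the middle of the pattern described below: Ndufa11 had the widest gap between immature and mature neutrophil-like cells among the genes shown, Cox6a1 lay near the middle, Uqcrh, Cox8a and Ndufa7 did not follow, and Uqcr11 had one of the 3 largest folds of osteoclast-like over macrophage-like cells among members with at least 100 UMIs. Each line gives the 200 bases before the RefSeq transcript start on GRCm38.p6, 5′ to 3′ on the gene's strand. Capitals mark an exact match, on either strand, to the letters GCGCATGCG (within the motif of the factor NRF1) or CCGGAAGT (an ETS-family motif bound by GABPA). Both factors are known from textbook work on respiratory gene promoters. Cox8a has an ETS match and Uqcr11 an NRF1 match that lie within the longer windows counted below but not wholly within the printed bases. The last printed bases of a line can hold part of such a match in lower case.
Ndufa11, chr17:56717562-56717761, plus strand: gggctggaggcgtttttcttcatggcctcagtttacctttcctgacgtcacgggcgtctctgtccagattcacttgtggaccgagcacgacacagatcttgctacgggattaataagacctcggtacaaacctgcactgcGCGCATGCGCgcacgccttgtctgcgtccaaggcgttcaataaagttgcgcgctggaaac
Cox6a1, chr5:115348959-115349158, minus strand: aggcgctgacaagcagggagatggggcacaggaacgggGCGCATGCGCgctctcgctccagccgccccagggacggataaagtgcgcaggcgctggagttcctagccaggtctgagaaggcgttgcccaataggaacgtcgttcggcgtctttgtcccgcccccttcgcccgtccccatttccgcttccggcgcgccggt
Uqcrh, chr4:116075071-116075270, minus strand: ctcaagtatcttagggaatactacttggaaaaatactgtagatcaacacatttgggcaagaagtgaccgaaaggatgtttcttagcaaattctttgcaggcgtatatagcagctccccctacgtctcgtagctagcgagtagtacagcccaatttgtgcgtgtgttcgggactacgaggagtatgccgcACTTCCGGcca
Uqcr11, chr10:80406822-80407021, minus strand: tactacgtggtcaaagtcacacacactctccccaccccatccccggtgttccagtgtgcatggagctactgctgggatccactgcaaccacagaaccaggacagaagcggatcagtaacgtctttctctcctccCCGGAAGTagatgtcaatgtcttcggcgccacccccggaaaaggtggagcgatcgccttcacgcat
Cox8a, chr19:7217617-7217816, minus strand: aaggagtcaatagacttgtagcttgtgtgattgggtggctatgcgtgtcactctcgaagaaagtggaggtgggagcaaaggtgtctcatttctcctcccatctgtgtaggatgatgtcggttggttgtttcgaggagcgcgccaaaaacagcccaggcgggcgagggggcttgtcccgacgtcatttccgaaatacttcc
Ndufa7, chr17:33824372-33824571, plus strand: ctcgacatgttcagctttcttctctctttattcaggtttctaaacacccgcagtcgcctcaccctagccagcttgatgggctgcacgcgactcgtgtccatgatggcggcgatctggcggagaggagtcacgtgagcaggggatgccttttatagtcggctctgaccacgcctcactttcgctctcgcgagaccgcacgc

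RefSeq start windows of 300 bases, 250 before and 50 after the start, were found for 73 of the 88 genes, and both strands were searched. The NRF1 letters stood in 10 of the 73 (13.7%), against 1.95% of 27025 genes with such a window. With the letter C added to complete the palindrome they stood in 7 (9.59%), against 1.07%. The letters AAGATGGCG, the motif of YY1, stood in 8 (11%), against 1.64%, and the ETS letters in 5 (6.85%), against 4.31%. At least 1 of the 3 motifs, none of which holds another, was present in 22 members (30.1%) and in 7.48% of all genes. Among the 37 members with a window that were at least 1.5-fold higher in immature than in mature neutrophil-like cells of both libraries, 10 (27.0%) held a motif, and among the 21 other measured members 8 (38.1%) did. The NRF1 letters stood in 4 of the 37 and 3 of the 21, and with the added C in 4 and 0. The 27025 genes were not chosen by expression in these cells or by base composition, so the shares do not compare like genes. A match is a description of letters and not a binding site.

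Across all cells the 88 genes held 405575 UMIs. Their summed level with implants was 10247 CPM (10202 to 10292), or 1.02% of UMIs, and in the non-implanted library 9612 CPM (9570 to 9653), or 0.961%. The libraries also differ in their mix of cell classes. Mature neutrophil-like cells numbered 884 against 1214, immature 387 against 606, and foam or matrix macrophage-like 64 against 3. The part of this mix in the difference over all cells was not tested. Of the 88 genes, 81 had at least 20 UMIs and 63 at least 1000. Cox4i2, Cox7b2, Ndufa4l2 and Cox8b had 2, 5, 8 and 18 UMIs. The rows of Cox4i1, Cox8c and Ndufa13 held 0 UMIs, which allows up to 0.154 CPM (implanted) and 0.140 CPM (non-implanted). Cox4i1 and Ndufa13 encode subunits used in nearly every cell, and Itgam and Irf8, a factor of monocytes, were likewise at 0, so a row at 0 is not read here as absence of the transcript.

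The genes with the most UMIs per complex were Ndufb7 (11332) and Ndufb9 (8307), both accessory subunits of complex I, Uqcrh (13530), the hinge subunit of complex III, and Uqcrq (8875), Cox8a (25727) and Cox7a2 (12756), small subunits of complex IV, and Atp5e (22860) and Atp5j (12630), which encode the epsilon subunit and the coupling factor F6 of complex V. These are sums of 3′-end molecules, which do not grow with transcript length but do depend on how reads at each 3′ end could be placed.

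The summed level of the 88 genes differed most between cell classes. Osteoclast-like cells stood at the top, with 40888 CPM (40116 to 41671) in 11 implanted cells and 33883 (33409 to 34362) in 28 non-implanted cells. Erythroid-like cells followed with 17341 and 17634, then promyelocyte-like cells with 15961 and 14764, and monocyte-like cells with 13706 and 13570, where the first value of each pair is the implanted library. B lineage-like cells had 11272 and 10901, cycling granulocyte precursor-like cells 10419 and 10302, macrophage-like cells 9095 and 9406, and nonclassical monocyte-like cells 9001 and 8546. The lower end was held by neutrophil-like cells: immature 8135 and 8073, transitional 5557 and 5548, activated 5297 and 6118, and mature 5114 and 5179. A further class, foam or matrix macrophage-like, had 12007 CPM in 64 implanted cells but only 3 non-implanted cells (9078, 7584 to 10779) and is left out of the plots and comparisons. From osteoclast-like down to monocyte-like cells the order was the same in both libraries with intervals that did not overlap. Further down, macrophage-like and nonclassical monocyte-like cells had overlapping intervals in the implanted library, and the activated and transitional classes changed places between libraries. A lower share of UMIs can also come from more RNA of other genes, so molecules per cell are given too: 971 and 696 member UMIs per osteoclast-like cell, 249 and 221 per promyelocyte-like cell and 14.1 and 14.3 per mature neutrophil-like cell. In erythroid-like cells the median cell had 0.875% and 1.01% of its UMIs in the 88 genes, below the summed shares of 1.73% and 1.76%. The cells above the class's median depth held 92.5% and 89.5% of its member UMIs, with 2.07% and 2.17% of their UMIs in the 88 genes, against 0.577% and 0.678% in the shallower cells.

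**Figure D1:**
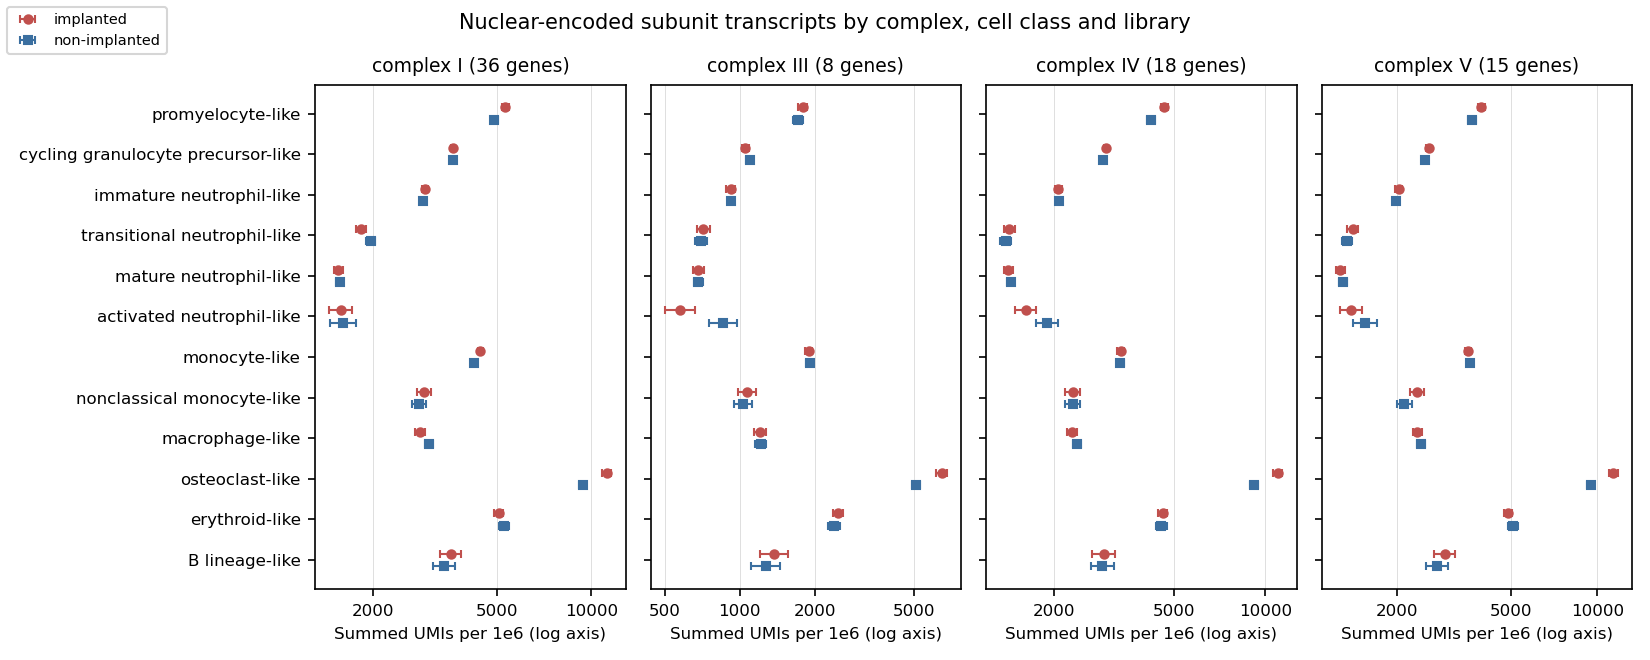
Summed level of the subunit genes of each complex (CPM, UMIs per 1000000 UMIs of the class, log axis) in 12 cell classes, with circles for the implanted and squares for the non-implanted library. Bars are 95% exact Poisson intervals for counting error, and each point is 1 library. Osteoclast-like cells are highest in all 4 complexes, and the neutrophil-like stages lie lower from promyelocyte-like to transitional, with mature below transitional cells in complex I and near them in the others.

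The plot of summed levels by complex shows osteoclast-like cells above every other class in each of the 4 complexes. Below them the order of classes differed in part: complex III was higher in monocyte-like (1886 and 1902 CPM) than in promyelocyte-like cells, while complexes I and IV were higher in promyelocyte-like cells. Complex I summed to 5297 and 4900 CPM in promyelocyte-like cells, 2943 and 2894 in immature and 1550 and 1565 in mature neutrophil-like cells. Complex III summed to 1784 and 1709, 918 and 922, and 683 and 683 in the same neutrophil stages. Complex IV gave 4637 and 4202, 2070 and 2086, and 1418 and 1443, and complex V gave 3944 and 3666, 2034 and 1987, and 1274 and 1303. Complex I therefore differed more than complex III over the neutrophil stages in both libraries. The libraries gave nearly the same numbers in immature and mature cells. In promyelocyte-like cells complexes I, IV and V were higher in the implanted library, with intervals that did not overlap. The mt-encoded subunits, 13 genes read from mitochondrial DNA, differed by other amounts over these stages: they summed to 9887 and 8138 CPM in promyelocyte-like, 2234 and 2207 in immature and 1934 and 1824 in mature neutrophil-like cells, so almost the whole difference lay before the immature stage.

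**Figure D2:**
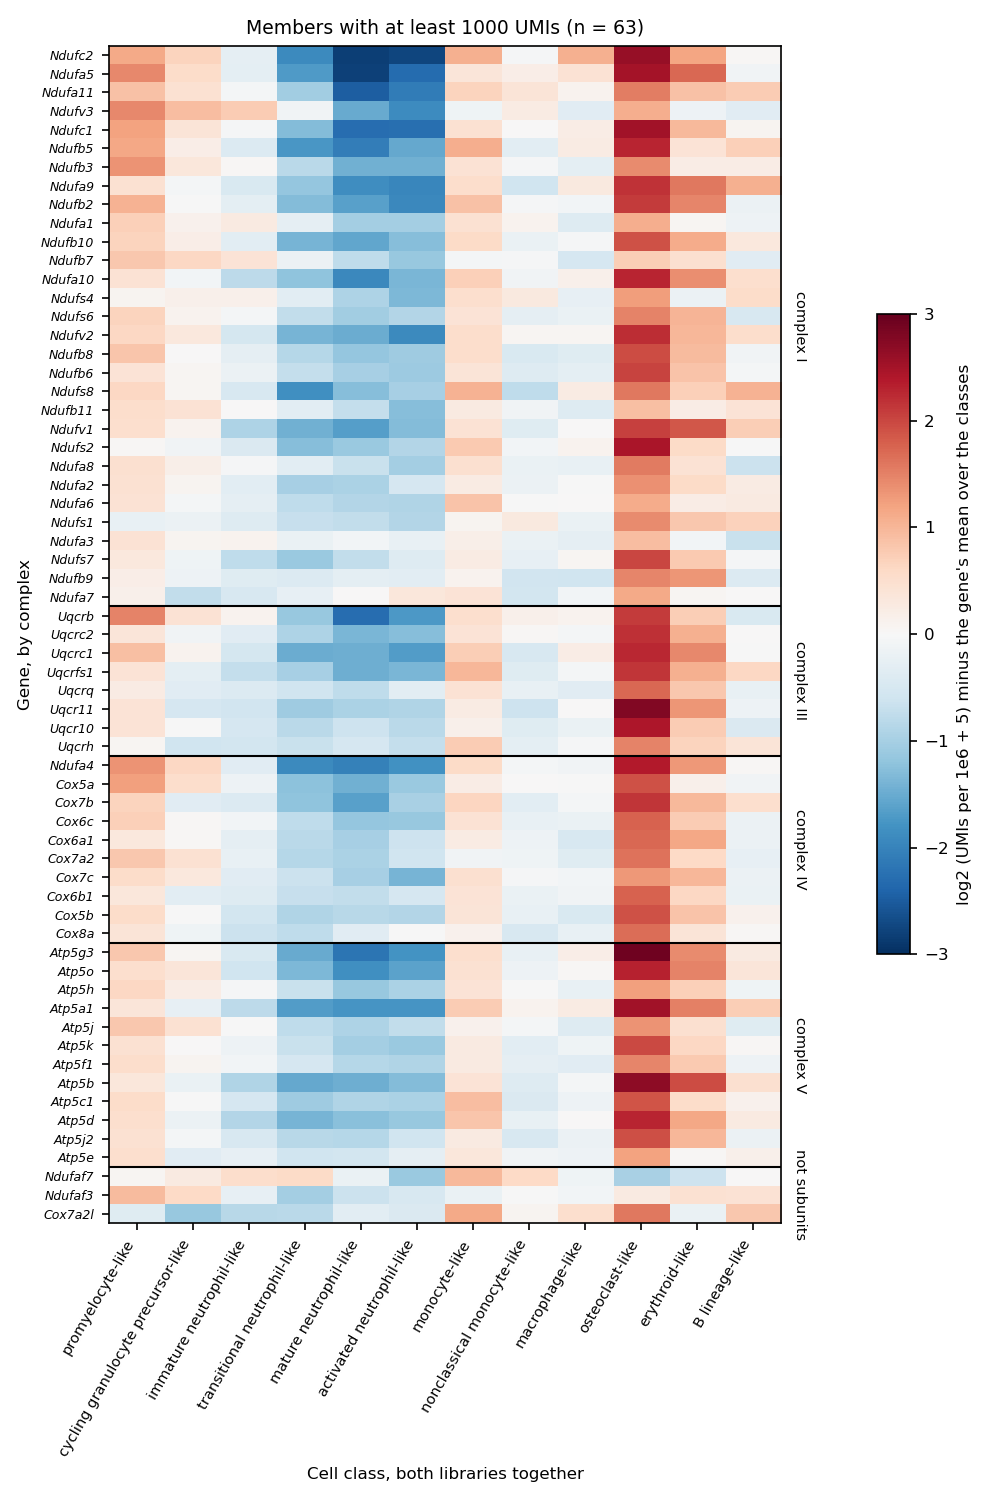
Level of each of the 63 members with at least 1000 UMIs (rows, by complex) in 12 cell classes (columns, both libraries together), as log2 of CPM plus 5 minus the gene's mean over the classes. Within each complex the genes that differ most between immature and mature neutrophil-like cells stand on top. Nearly all rows are highest in the osteoclast-like column, while the mature neutrophil-like column is deep blue at the top of each block and pale at the bottom.

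Over 18 points, 9 classes with at least 50 cells in each of the 2 libraries, the 63 members with at least 1000 UMIs had a median Pearson correlation of 0.92 with the summed level of all members, with a range from 0.0759 to 0.986. The median over 4937 other genes was 0.28. Each member is itself part of the summed level and the other genes are not, so the medians are not on equal terms. The points share libraries, depth and clusters, so these are descriptions without a p-value. The other genes most like the summed members were Smdt1 (0.981), a subunit of the mitochondrial calcium uniporter, Anapc13 (0.980), of the anaphase-promoting complex, Rpl22l1 (0.977), a ribosomal protein paralog, Eny2 (0.974) and Dcun1d5 (0.972).

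Between immature and mature neutrophil-like cells the 88 genes were 1.59-fold (1.56 to 1.63) higher in the immature cells of the implanted library and 1.56-fold (1.53 to 1.59) in those of the other. Of 67 members with at least 20 UMIs in the implanted comparison, 47 were at least 1.5-fold higher in immature cells and 1 was lower, while 27.7% of all measured genes were that much higher and 25.8% lower. In the non-implanted library 48 of 73 were higher and 1 lower, against 27.4% and 23.8% of all measured genes. Folds of single genes are ratios of CPM plus 5, which understates the change of low genes. The median member differed by 0.79 and 0.74 on this log2 scale, the median gene by 0.06 and 0.08. In both libraries together, 41 of the 67 members measured in each were at least 1.5-fold higher, against 22.3% of all genes measured in both. The 2 comparisons use different cells and libraries but the same clusters.

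Complex I had the widest difference. Its sum was 1.90-fold (1.82 to 1.97) and 1.85-fold (1.79 to 1.91) higher in immature cells, with 26 of 32 measured genes at least 1.5-fold higher with implants and 25 of 35 without. Complex V was 1.60-fold and 1.53-fold higher (9 of 14 genes in each), complex IV 1.46-fold and 1.45-fold (7 of 10 and 8 of 11), and complex III 1.34-fold and 1.35-fold (4 of 8 in each). The 11 non-subunits together had ratios of 0.902 (0.790 to 1.03) and 0.994 (0.895 to 1.11), values that Cox7a2l decided: the other 10 summed to 82.9 against 52.2 CPM and 89.2 against 51.4, ratios of 1.59 (1.27 to 1.99) and 1.73 (1.45 to 2.08).

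Ndufc2, an accessory subunit in the membrane arm of complex I, had 67.4 CPM in immature cells of each library and 8.22 (implanted) and 6.58 (non-implanted) in mature cells, a ratio of 8.19 (5.15 to 13.7) and 10.2 (6.64 to 16.6). Its level was already 17.7 and 18.3 in transitional cells. Ndufa11, the membrane-arm subunit whose start region opens the list above, had 57.2 and 71.4 against 7.40 and 9.27, a ratio of 7.72 (4.72 to 13.4) and 7.70 (5.32 to 11.5). Immature and mature levels of both genes lay far apart in each library. Ndufa5, a subunit of the peripheral arm, had 34.4 and 33.4 against 2.88 and 1.20, with 7 and 4 UMIs in all mature cells. Ndufv3, a small accessory subunit beside the NADH-binding module, went stepwise from 394 and 356 CPM in promyelocyte-like cells to 235 and 229 in immature, 112 and 134 in transitional and 48.5 and 41.0 in mature cells.

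Uqcrb, a subunit of complex III near the ubiquinone site, had 89.0 and 108 CPM in immature and 14 and 16.2 in mature cells, a ratio of 6.36 (4.43 to 9.41) and 6.66 (5.02 to 9.0). Ndufa4, now counted as a subunit of complex IV, had 169 and 198 against 46.9 and 60.1. Atp5g3, one of 3 genes for the ring-forming c subunit of complex V, had 83.3 and 81.4 against 18.5 and 23.0. These steep members are spread over all 4 complexes. Several abundant members were less steep, although Ndufa4 is abundant too. Ndufb7 had 342 and 314 against 152 and 132, Atp5j 292 and 293 against 151 and 154, Cox7a2 245 and 272 against 148 and 163, Cox6a1 181 and 192 against 105 and 116, Uqcrq 176 and 180 against 130 and 142, and Atp5e 538 and 497 against 409 and 413.

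A few subunits were as high or higher in mature cells. Cox8a, the member with the most UMIs and a small subunit of complex IV, had 450 and 438 CPM in immature and 556 and 541 in mature cells, a ratio of 0.810 (0.748 to 0.876) and 0.811 (0.760 to 0.865). Uqcrh had 255 and 245 against 253 and 257, and Ndufb9 169 and 160 against 162 and 182. Ndufa7, an accessory subunit of complex I, had 138 and 139 against 199 and 194. Those 4 genes showed none of the difference seen in Ndufc2. The only members at least 1.5-fold lower in immature cells were Cox7a2l, a factor that joins complexes III and IV into supercomplexes, at 86.7 against 136 in the implanted library (95.2 against 134 in the other), and Atp5l, the g subunit of complex V, at 14.5 against 25.4 in the non-implanted library (17.8 against 22.2 in the other).

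**Figure D3:**
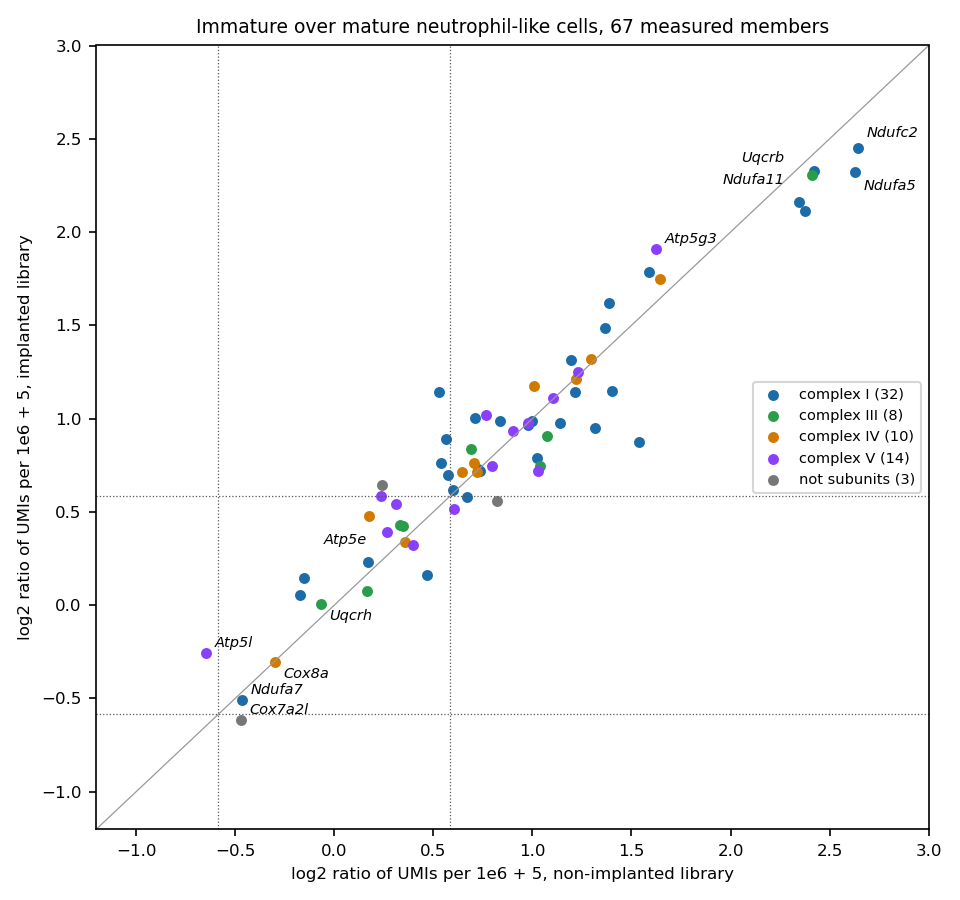
log2 ratio of CPM plus 5, immature over mature neutrophil-like cells, for the 67 members measured in both libraries (horizontal axis the non-implanted, vertical axis the implanted library), coloured by complex. Dotted lines mark 1.5-fold and the diagonal marks equal ratios. Points lie along the diagonal from Cox7a2l and Ndufa7 at the lower left to Ndufc2 and Ndufa5 at the upper right.

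The direction of the genes at the lower end depends on what the levels are divided by. The 50 most abundant other genes, led by the granule and calcium-binding genes S100a9, S100a8, Camp and Ngp, took 56.7% and 57.1% of the UMIs of immature cells and 34.9% and 35.2% of those of mature cells. With those genes left out of the total, the summed members were 2.39-fold (2.34 to 2.44) and 2.35-fold (2.31 to 2.39) higher in immature cells. On that scale 63 of 67 and 66 of 73 members exceeded 1.5-fold and 0 lay as far below, beside 50.0% and 49.7% of all genes higher, and the median gene itself moved from 0.06 and 0.08 to 0.58 and 0.58. The median member stood at 1.39 and 1.35. Cox8a, Uqcrh, Ndufa7 and Ndufb9 then came out higher in immature cells, and only Cox7a2l in the implanted and Atp5l in the non-implanted library stayed below 0. Changing the total thus shifts members and other genes by a similar amount.

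Other mitochondrial lists differed by other amounts over the same step. The mitochondrial ribosome genes were 1.64-fold and 1.70-fold higher in immature cells, citrate cycle and pyruvate dehydrogenase genes 1.41-fold and 1.40-fold, complex II with cytochrome c1 and cytochrome c 1.33-fold and 1.38-fold, and other assembly factors 1.43-fold and 1.31-fold. The mt-encoded subunits were 1.16-fold and 1.21-fold higher. The regulators of mitochondrial biogenesis, among them Ppargc1b, Nrf1 and Tfam, had ratios of 0.868 and 0.849, and Ucp2, which encodes an uncoupling protein, with Atpif1, the ATP synthase inhibitor, 0.897 and 0.886. Among these lists only the mitochondrial ribosome had a ratio as high as the summed members. Markers of the other stage were present in each class: the immature list summed to 5262 and 4887 CPM in mature cells, and the mature list to 3792 and 3835 in immature cells, in both cases with all markers detected. Their part in the ratios was not tested.

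Single steps along the stages were unequal. Promyelocyte-like over cycling precursor-like cells gave 1.53 (1.5 to 1.56) and 1.43 (1.41 to 1.46), with 42 of 75 and 27 of 75 members at least 1.5-fold higher beside 23.3% and 18.5% of all genes, and 0 lower in either library beside 7.81% and 9.02%. Cycling precursor-like over immature cells gave 1.28 and 1.28, with 21 of 76 and 20 of 76 members higher beside 25.1% and 20.8% of all genes, a share near the background, and 0 lower beside 8.84% and 7.59%. Immature over transitional cells gave 1.46 and 1.46, with 37 of 68 and 35 of 72 higher beside 26% and 26.6%, and 0 lower beside 15.6% and 13.5%. Transitional over mature cells gave 1.09 and 1.07, with 11 of 63 and 12 of 65 higher beside 10.6% and 9.28%, and 0 lower beside 22.8% and 22.8%. As shares of UMIs, the 2 larger differences were thus between the promyelocyte-like and cycling classes and between the immature and transitional classes. Member UMIs per cell ordered the steps otherwise. They were 249 and 221 in promyelocyte-like, 145 and 157 in cycling precursor-like, 55.5 and 59.9 in immature and 23.3 and 24.2 in transitional cells. By that measure the widest ratio was between the cycling precursor-like and immature classes in both libraries. At the last step the summed mt-encoded subunits went the other way: 1383 and 1104 CPM in transitional, 1934 and 1824 in mature cells. The median cell did not: all mt- genes took 0.276% and 0.251% of its UMIs in transitional and 0.258% and 0.241% in mature cells.

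In activated neutrophil-like cells, which express Cxcl2, Ccl3 and other inflammatory genes, the summed nuclear and mitochondrial transcripts parted. The 88 genes summed to 5297 (5061 to 5541) and 6118 (5834 to 6412) CPM, close to mature cells. The mt-encoded subunits summed to 5662 (5419 to 5914) and 5478 (5210 to 5757), against 1934 (1879 to 1990) and 1824 (1778 to 1870) in mature cells. The mature level was thus 0.342 (0.324 to 0.360) and 0.333 (0.315 to 0.352) of the activated level for the mt-encoded subunits, and 0.965 (0.920 to 1.01) and 0.847 (0.806 to 0.890) for the 88 nuclear genes. Of 62 measured members in each library, 4 and 9 were at least 1.5-fold lower in mature cells, beside 20.1% and 20.6% of all genes, and 2 and 6 higher, beside 14% and 13.6%. In the median cell the gap in mitochondrial transcripts was narrower than in the sums. All mt- genes took 0.407% and 0.420% of its UMIs in activated and 0.258% and 0.241% in mature cells. The mature class includes a cluster of 640 cells with Acod1, Cxcl2 and Il1b among its leading genes. High mt- shares also mark damaged cells, and the part of damage in the mitochondrial difference was not tested.

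Osteoclast-like cells had the largest amounts of all 4 complexes. Over macrophage-like cells the 88 genes were 4.50-fold (4.38 to 4.62) higher with implants and 3.60-fold (3.52 to 3.68) higher without. At least 1.5-fold higher were 72 of 73 and 74 of 79 measured members, beside 34.6% and 35.2% of all genes, and 0 and 1 were lower, beside 30.7% and 22.9%. The median member differed by 2.08 and 1.80 on the log2 scale, the median gene by 0.10 and 0.22. By complex the ratios were 3.95 and 3.11 for complex I, 5.34 and 4.18 for III, 4.77 and 3.84 for IV and 4.82 and 3.89 for V. The mt-encoded subunits were also higher, 2.97-fold and 2.26-fold.

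Uqcr11, the smallest subunit of complex III, had 1202 and 887 CPM in osteoclast-like and 144 and 142 in macrophage-like cells. Atp5b, the catalytic beta subunit of complex V, had 1532 and 1319 against 187 and 215, and Atp5g3 1038 and 838 against 147 and 123. Those 3 genes differed by 2.59 to 3.02 on the log2 scale. At the other end Cox7a2l had 586 and 476 against 264 and 222, Ndufa7 417 and 436 against 176 and 188, and Ndufa6 471 and 362 against 176 and 189. Ndufaf7, a methyltransferase that assists complex I assembly, was the 1 member that was lower in the non-implanted library, with 13.9 against 36.5 CPM and 8 UMIs in osteoclast-like cells. The class holds 11 and 28 cells, with medians of 24503 and 21398 UMIs per cell, and the share of member UMIs per cell ran from 1.89% over a median of 3.84% to 5.76% in the implanted and from 1.26% over 2.69% to 7.18% in the non-implanted library. The 2 ranges overlap widely.

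Monocyte-like cells stood between. Over macrophage-like cells their summed members were 1.51-fold (1.47 to 1.54) and 1.44-fold (1.41 to 1.47) higher, with 33 of 76 and 30 of 75 members at least 1.5-fold higher beside 18.3% and 17.3% of all genes. The mt-encoded subunits lay the other way, at 8092 and 7836 CPM in monocyte-like against 10648 and 11004 in macrophage-like cells. The median member was 0.52 and 0.47 higher on the log2 scale, beside 0.11 and 0.09 for all genes. The macrophage-like class also held dendritic cell markers. Its largest cluster has Cd74, H2-Eb1, H2-Aa and H2-Ab1, genes of antigen presentation shared with dendritic cells, among its leading genes, and the conventional dendritic cell list summed to 24072 and 28657 CPM in the class, against 4241 and 3316 in monocyte-like cells. At clustering resolution 2, 36 and 56 cells were named conventional dendritic cell-like. The class joins 3 clusters that differ in member level, from 5280 and 6842 CPM in the lowest to 14640 and 14429 in the highest. The highest, with 168 cells, lies above the monocyte-like level in both libraries. It is shallow, with a median of 956 UMIs per cell against 6890 and 7665 in the others. The macrophage-like class also holds neutrophil transcripts: the immature neutrophil list summed to 11726 and 20433 CPM there with 11 of 11 markers detected, and their part in these ratios was not tested.

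The comparison of the 2 libraries asks whether the implant side differs in these genes. In the large classes the summed members were within a few percent of each other. Implanted over non-implanted was 0.987 (0.965 to 1.01) in mature, 1.00 in transitional, 1.01 (0.991 to 1.03) in immature neutrophil-like and 1.01 in cycling precursor-like cells, and 1.01 (0.992 to 1.03) in monocyte-like cells. In the 65 members measured in mature neutrophil-like cells, 1 was at least 1.5-fold higher in the implanted library and 0 lower, beside 1.78% and 1.55% of all genes. In immature cells 1 of 73 was higher and 3 lower, beside 0.975% and 1.29%. In monocyte-like cells 3 of 77 were higher and 1 lower, beside 3.34% and 2.67%, and in macrophage-like cells 2 of 77 higher and 4 lower, beside 6.05% and 5.96%. In cycling precursor-like cells 1 of 78 was higher and 0 lower, beside 1.27% and 0.742%, and in transitional cells 3 of 65 and 1, beside 4.09% and 3.13%. Each of these counts rests on 4 genes or fewer. The 1 gene in mature cells was Ndufs5, those in immature cells Cox7c (higher) and Ndufb2, Ndufab1 and Ndufb4 (lower).

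The smaller classes ranged from 0.866 to 1.21. The summed members were higher in the implanted library in osteoclast-like cells (1.21, 1.18 to 1.24), promyelocyte-like cells (1.08, 1.06 to 1.11) and nonclassical monocyte-like cells (1.05, 1.01 to 1.10). They were lower in activated neutrophil-like cells (0.866, 0.811 to 0.925) and macrophage-like cells (0.967, 0.943 to 0.992). The macrophage-like direction turned with the processing: its log2 value of -0.0485 became 0.0465 with cells thinned to 1000 UMIs, 0.0947 with equal weight per cell and 0.114 with foam or matrix macrophage-like cells joined. In that class the macrophage list summed to 25324 against 18302 CPM, the immature neutrophil list to 11726 against 20433 and the erythroid list to 2784 against 183, and their part in the ratio was not tested. Erythroid-like (0.983, 0.958 to 1.01) and B lineage-like cells (1.03, 0.971 to 1.10) had intervals that held 1. At least 1.5-fold higher and lower were 5 and 1 of 75 members in osteoclast-like cells, beside 12.8% and 18.7% of all genes, 3 and 0 of 74 in promyelocyte-like cells, beside 9.14% and 3.3%, and 4 and 1 of 63 in nonclassical monocyte-like cells, beside 8.61% and 7.32%. They were 1 and 6 of 40 in activated neutrophil-like cells, beside 9.97% and 10.7%, 1 and 4 of 74 in erythroid-like cells, beside 10.3% and 7.46%, and 9 and 5 of 58 in B lineage-like cells, beside 19% and 14.1%. The 1 lower member of 75 in osteoclast-like cells lay below its background share, and the other counts rest on 9 genes or fewer. In promyelocyte-like cells the median of all genes was itself 0.11 higher on the log2 scale. In osteoclast-like cells leaving out the cell with the most member UMIs of each library gave 1.22 (1.19 to 1.25), and all 4 complexes lay between 1.19 and 1.27. The immature neutrophil list summed to 280 CPM in implanted and 3353 in non-implanted osteoclast-like cells and the osteoclast list to 22989 and 11296, and their part in the ratio was not tested. In activated neutrophil-like cells complex III differed most, 0.674 (0.557 to 0.814), with Uqcrh at 170 against 288 CPM, and there the immature neutrophil list summed to 2625 against 6156.

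**Figure D4:**
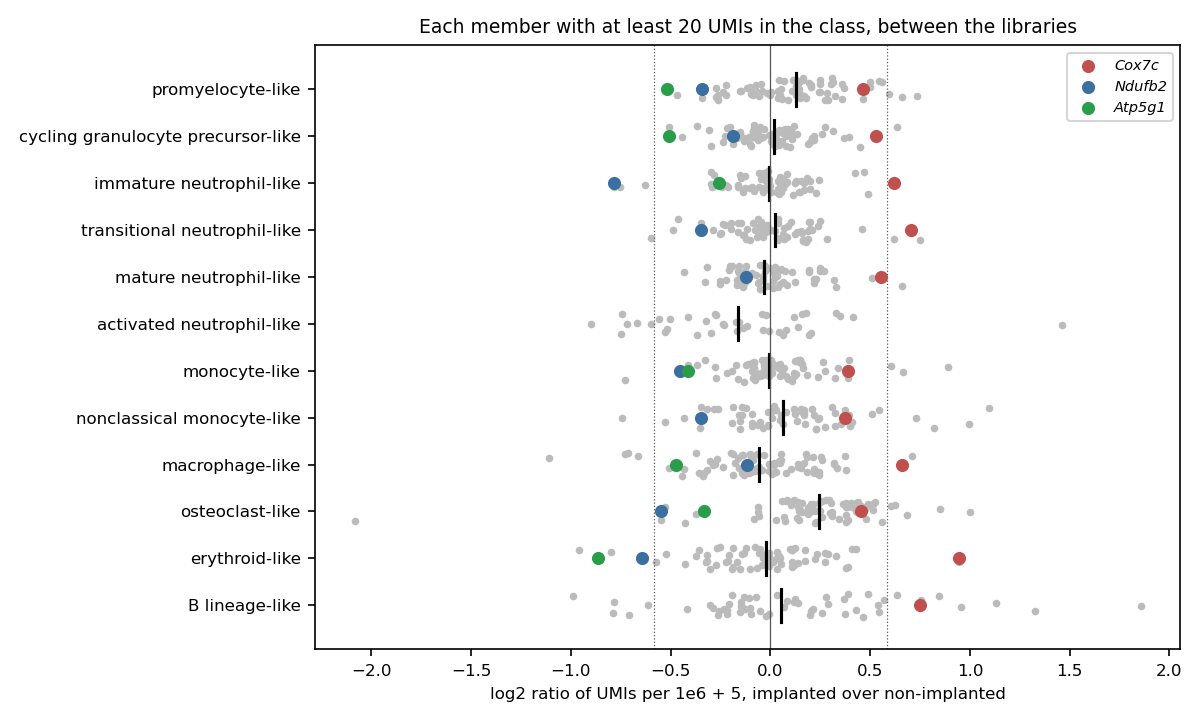
Ratio of the implanted to the non-implanted library, as log2 of CPM plus 5, for each member with at least 20 UMIs in the class (grey points, 12 classes). Black bars are the median member, dotted lines mark 1.5-fold, and Cox7c, Ndufb2 and Atp5g1 are coloured. The medians lie near 0, with the osteoclast-like and promyelocyte-like classes to the right and the activated neutrophil-like class to the left, while Cox7c lies to the right in each class that shows it.

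Single genes that leaned one way in every class are few. Of 62 members measured in 10 or more of the 12 classes, 2 were higher in the implanted library in every measured class, beside 0.994% of all such genes, and 1 was lower in every one, beside 1.11%. The classes of a library share its preparation and are not replicates. Cox7c, a small subunit of complex IV, was higher in 11 of 11 classes, by 0.37 to 0.95 on the log2 scale, with a median of 0.55. Its level over all cells was 108 CPM with implants and 68.6 without, a ratio of 1.58 (1.48 to 1.69). It was 147 against 105 in promyelocyte-like, 128 against 87.2 in cycling precursor-like, 86.7 against 54.7 in immature, 69.3 against 40.5 in transitional and 51.0 against 33.2 in mature neutrophil-like cells. It was 136 against 103 in monocyte-like, 103 against 63.1 in macrophage-like, 268 against 195 in osteoclast-like and 218 against 111 in erythroid-like cells. The same lean therefore appeared in cells as far apart as neutrophil-like and erythroid-like cells. A near-identical copy of Cox7c, Gm12338, had 36.7 against 33.0 CPM, a ratio of 1.11 (0.998 to 1.23).

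The other gene higher in every measured class was Ndufs5, a subunit of complex I, in 10 of 10 classes. It had 28.3 against 18.2 CPM over all cells. Its near-identical copy, BC002163, held 0 UMIs. Ndufb2, another accessory subunit of complex I, was lower in 10 of 10 classes, by -0.78 to -0.12 on the log2 scale. It had 25.8 against 31.5 CPM over all cells, a ratio of 0.820 (0.729 to 0.921), and 12.5 against 25.1 in immature neutrophil-like cells. Atp5g1, a c subunit gene, was lower in 7 of 7 classes, too few for the count above. No share of all genes was computed for such genes. Other members measured in few classes were also one-sided, such as Atp5s (lower in 5 of 5) and Ndufaf5 (higher in 3 of 3). Over all cells Atp5g1 had 16.0 against 22.2 CPM, a ratio of 0.723 (0.624 to 0.835), while its copy Gm10039 had 76.5 against 64.7, a ratio of 1.18. For Atp5g1 the gene and its copy lean in opposite directions.

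Several subunits have a tissue-specific twin, and these were measured too. Cox6a2, the form of subunit 6a known from heart and skeletal muscle, had 110 UMIs in 15 cells, against 8775 of the ubiquitous Cox6a1. Of the 110 UMIs, 104 lay in B lineage-like cells, at 192 (133 to 269) and 387 (302 to 489) CPM. Within that cluster, 103 of the UMIs lay in 9 of the 10 cells with a Siglech UMI and 1 in the other 63 cells. Siglech encodes a lectin known from plasmacytoid dendritic cells. The 10 cells, 3 implanted and 7 non-implanted, had UMIs of Tcf4 and Ly6d in 10 cells and of Bst2 and Ccr9 in 9, and none of Cd79a or Ebf1, which were found in 62 and 61 of the other 63. In those 10 cells Cox6a2 reached 1432 CPM. They were singled out after the values were seen, and mature neutrophil-like cells had 0 UMIs of Cox6a2 in either library, which allows up to 1.23 and 0.897 CPM.

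Cox6b2, the testis form of subunit 6b, had 517 UMIs. It was highest in erythroid-like cells, at 98.1 (77.6 to 122) and 124 (95.7 to 158) CPM with the UMIs spread over 37 of 118 cells, followed by promyelocyte-like cells with 44.3 and 33.4, in 50 of 135 cells. Immature neutrophil-like cells had 4.16 and 6.23, and mature cells 0 UMIs. The usual form, Cox6b1, had 202 and 192 CPM in mature cells, so its level there did not go to 0 with that of Cox6b2. Cox7a1, the muscle form of subunit 7a, had 76 UMIs and was highest in osteoclast-like cells, at 23.0 (8.43 to 50.0) and 31.3 (18.5 to 49.5) CPM, in 10 of 39 cells with 11 of the 24 UMIs in 1 cell. Of the 18 UMIs of Cox8b, 16 came from 2 cells of a cluster that was given no name. Among the c subunit genes of complex V, Atp5g3 held 5036 UMIs, Atp5g1 787 and Atp5g2 72.

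Rows of near-identical gene copies held UMIs as well. For 18 members, 31 pseudogenes or predicted genes elsewhere in the genome match at least 90 of the last 300 transcript bases at 97% identity or more, and these rows held 37822 UMIs, next to the 405575 of the members themselves. Reads that fit both places cannot be assigned, so levels of these 18 genes are uncertain. Among them are Cox7c, Ndufs5, Ndufab1, Atp5l, Uqcrb and Uqcr11, whose levels or ratios are given above. Gm10250 held 14298 UMIs against 4116 of Atp5h, the d subunit of complex V, Gm10039 2877 against 787 of Atp5g1, and Gm12251 687 against 441 of Ndufs3, a core subunit of complex I. In 3 cases the copies thus held more UMIs than the gene. Gm6265 held 5073 against 8528 of Cox6c, Gm11273 4052 against 6221 of Cox5b, and Gm5436 2939 against 3002 of Atp5o.

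**Figure D5:**
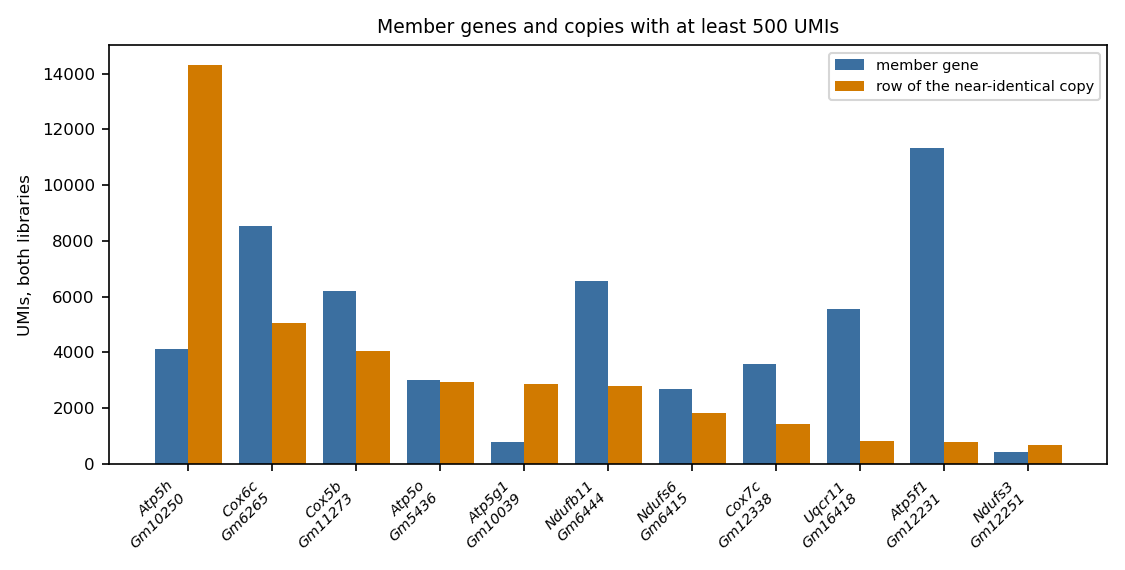
UMIs of both libraries together for the members whose near-identical copy held at least 500 UMIs (11 pairs), with the member in blue and the row of its copy in orange. For Atp5h, Atp5g1 and Ndufs3 the copy is higher than the gene, and for Atp5f1 it is far lower.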

How the data were processed

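Single-cell 3′ libraries of CD11b-enriched cochlear cells were analysed, 1 per group. The deposited matrices hold whole-number UMI counts, made by the authors with Cell Ranger 3.0.1 (per the file headers). Seurat and the builds mm10 and GRCm38 are named in the submitters' processing notes. The labels' extraction text covers other ages and tissue, so it was not used. The 88 genes and all lists were chosen with earlier results of these data known.

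Of 3231 and 3572 barcodes, 82 and 59 were left out (fewer than 200 genes or more than 10% mt- UMIs). Cells were clustered without members, mt- genes or the other mitochondrial lists reported (2000 variable genes, 30 components, 15 neighbours, Leiden resolution 1, 24 clusters, scanpy 1.11.5, leidenalg 0.10.2). The rule that names clusters from listed markers was settled after the clusters were seen, and 506 cells kept no name. Of these, 371 (242 implanted, 129 non-implanted) formed a cluster that scored nearly alike for immature and transitional neutrophils. Its members summed to 7700 and 7899 CPM, and it enters no stage or class comparison. No doublets were removed in the values reported; an alternative removed 84 and 102.

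Counts were summed per class and library and divided by that class's total. A gene counted as measured at 20 UMIs over both groups. Single-gene folds used a pseudocount of 5 CPM and a threshold of 1.5-fold; the calculation was tested on simulated data. No p-value was computed, since cells are not replicates. Named were the 2 members with most UMIs per complex, isoform sets, members at 0, and the 3 highest and 3 lowest in a comparison among members with 100 UMIs, of which the text gives those its main comparisons turn on. Promoters are RefSeq GRCm38.p6, and copies come from GENCODE transcripts. Python 3.11.15, scipy 1.17.1 and numpy 2.4.6 were used.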

Additional observations from a re-analysis of the deposited data

Results flagged for a closer look

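Between the libraries, the summed members leaned one way in some classes and the other way in others: the ratio of implanted over non-implanted was 1.08 in promyelocyte-like, 1.05 in nonclassical monocyte-like and 1.21 in osteoclast-like cells, and 0.866 in activated neutrophil-like and 0.967 in macrophage-like cells. The macrophage-like value changed sign under 3 alternatives (log2 -0.0485 became 0.0465, 0.0947 and 0.114). With 1 library per group the difference between these classes was not tested.

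Rows outside the 88 genes that are near-identical copies of members held 37822 UMIs. The barcodes left out by the cell filter also held member transcripts, at 5440 CPM (implanted) and 5310 CPM (non-implanted).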

How the results depend on the processing

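All values in this paragraph are log2 ratios of summed members unless said otherwise. For implanted over non-implanted cells, mature neutrophil-like cells (-0.0183) gave -0.0564 at resolution 2 and -0.0912 with the libraries clustered separately. Immature cells (0.0109) gave -0.0169 when clustered separately. Monocyte-like cells (0.0144) gave -0.0195 without the cell filter, -0.0191 with doublets removed, -0.0882 clustered separately and -0.0128 with equal weight per cell. Macrophage-like cells (-0.0485) gave -0.108 at resolution 2, 0.0465 thinned to 1000 UMIs, 0.0947 with equal weight per cell, -0.0878 without the 50 most abundant other genes and 0.114 with foam or matrix macrophage-like cells joined. The sign of these small ratios therefore depends on the setting. Immature over mature cells stayed above 0 in each alternative. The implanted value (0.67) became 0.736 without the filter, 0.748 at resolution 2, 0.574 thinned, 0.602 with equal weight, 1.26 without the 50 genes and 0.79 as the median member. The non-implanted value (0.641) became 0.711, 0.668, 0.534, 0.56, 1.23 and 0.738 in the same order, and 0.679 with the copies added. At a minimum of 100 UMIs the members 1.5-fold different between libraries were 0 of 53 in mature (1 of 65 at 20 UMIs), 2 of 65 in immature (4 of 73), 1 of 64 in monocyte-like (4 of 77) and 1 of 57 in macrophage-like cells (6 of 77), beside 1.63% (3.33%), 1.39% (2.27%), 2.89% (6.01%) and 6.65% (12%) of all genes. In the other 40 cases the value moved by less than its counting interval, or the count by less than 1.5 times. Joining foam or matrix macrophage-like cells and adding copies were chosen after seeing the data. The causes were not tested. Counting error limits members under 100 UMIs and the small classes, such as 11 osteoclast-like cells. No paired analysis was possible because each group has 1 library.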
